A study of Mus musculus with 28 samples.

Results

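The 6 genes described here, Vgf, Scg2, Scg3, Scg5, Chga and Chgb, encode the granins and their relatives, and they are 6 of the 41549 genes counted in nuclei sorted from mouse motor cortex. They were selected by name with their levels in these libraries already known, and the rule that picks them reads their level in each of the 4 groups. Their own differences are therefore given as a description, without a p-value. Each of the 6 names matched 1 gene, and all 6 had enough counts to be tested in every comparison.

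Each of 7 mice, numbered 17 to 23, carried 2 adeno-associated virus vectors that deliver the nuclease Cas9, one per hemisphere of the motor cortex. The left side received AAV-Cas9-miR-124-empty (called empty here) and the right side AAV-Cas9-miR-124-g4 (called g4), in a study of Cas9 knockdown of microRNAs. Vector and hemisphere coincide in every animal and cannot be told apart, and all groups share the injection and a Cas9 vector. Nuclei from fixed tissue were stained for the HA tag carried by Cas9 and sorted as HA-positive or HA-negative. With 2 vectors and 2 sorted fractions this gave 4 groups of 7 libraries, each named by vector and fraction (for example empty HA-positive). The labels do not state age, sex, strain, the promoter that drives Cas9, the interval after injection or what g4 stands for. HA-negative nuclei came from the same injected tissue and are not untreated controls.

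Dense-core vesicles are the organelles in which neurons and endocrine cells store peptides and trophic factors, and release them on stimulation. Granins are acidic secreted proteins that take part in forming these vesicles at the trans-Golgi network and concentrating their cargo, and many of them are cut by prohormone convertases into peptides that are released with it. In cortex the vesicles are found in excitatory cells as well as in interneurons, which hold the classical neuropeptides, and several granin genes, Vgf and Scg2 among them, respond to neuronal activity and to cyclic AMP.

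The promoters of 5 members were found in RefSeq (build GRCm38.p6), as 300 bases from 250 before to 50 after the transcription start. They were searched on both strands for the cyclic AMP response element (CRE) TGACGTCA, which CREB proteins bind, its short core TGACG, the AP-1 element TGANTCA and the TATA element TATAAA. The core lies inside the full element on both strands, so each full element also counts as cores. Scg2 and Chgb are shown because they hold the full element, and Chga because it holds a core and the TATA element. The full element (Scg2, Chgb) or the core (Chga) stands in capitals, and each sequence reads 5′ to 3′ along the gene's own strand.
Scg2, chr1:79439977-79440276, minus strand: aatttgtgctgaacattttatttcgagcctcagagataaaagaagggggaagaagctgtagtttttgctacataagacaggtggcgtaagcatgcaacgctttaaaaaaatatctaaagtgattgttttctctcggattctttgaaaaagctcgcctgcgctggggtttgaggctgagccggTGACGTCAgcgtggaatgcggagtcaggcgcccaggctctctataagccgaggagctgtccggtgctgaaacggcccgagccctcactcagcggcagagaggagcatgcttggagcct
Chgb, chr2:132781392-132781691, plus strand: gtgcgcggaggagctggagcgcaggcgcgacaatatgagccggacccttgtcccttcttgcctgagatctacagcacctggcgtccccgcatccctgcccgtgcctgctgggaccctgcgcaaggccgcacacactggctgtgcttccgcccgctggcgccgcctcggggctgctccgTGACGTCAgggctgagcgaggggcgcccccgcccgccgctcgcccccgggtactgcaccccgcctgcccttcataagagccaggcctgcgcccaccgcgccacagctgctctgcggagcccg
Chga, chr12:102554691-102554990, plus strand: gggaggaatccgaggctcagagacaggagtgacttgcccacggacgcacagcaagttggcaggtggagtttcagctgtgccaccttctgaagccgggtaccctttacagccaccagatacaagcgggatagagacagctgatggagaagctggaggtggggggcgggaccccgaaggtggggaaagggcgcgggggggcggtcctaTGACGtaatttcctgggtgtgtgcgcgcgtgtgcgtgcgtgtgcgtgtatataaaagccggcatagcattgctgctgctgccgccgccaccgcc

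The full element begins 68 bases before the start in Scg2 and 72 bases before it in Chgb. Of 32851 RefSeq promoters of the same length, 1.79% hold it. The core was found in all 5 promoters, 44 bases before the start in Chga, 30 in Scg3 and 175 in Scg5, and in 20.8% of all promoters. Scg5 holds 2 more cores just after its start. TATAAA was found in Chga only, in a stretch that RefSeq places just after the start (13.6% of all promoters), and TGANTCA in 0 of the 5 (7.81% of all promoters). These are matches of letters and were not tested for binding. The members were also searched for the sequences that pair with the seed of miR-124, GTGCCTT and TGCCTTA, in their longest annotated 3′ untranslated region. Those of the 6 members are 250 to 659 bases long and hold 0 such matches, against at least 1 in 20.6% of 21130 genes, whose median length is 1085 bases.

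Totals ran from 248612 to 902944 counts per library and detected genes from 8687 to 13668, with 4 HA-positive libraries below 10000 genes (empty of animals 17, 21 and 22, and g4 of animal 18). A member had 5 to 202 counts in a library, so that counting error alone gives a coefficient of variation of 9.75 to 25.3% within a group. Levels are in CPM, counts scaled to a common library size after TMM normalization over all 28 libraries. Of the marker lists, inhibitory neuron genes summed to 2977 to 4565 CPM in empty HA-positive and 2113 to 3972 in g4 HA-positive libraries, against 1034 to 1383 and 923.1 to 1378 in the HA-negative ones of the same vectors. Excitatory neuron genes summed to 986.3 to 1775, 1492 to 2026, 1774 to 2445 and 1609 to 2365 CPM in HA-positive nuclei with empty and with g4 and in HA-negative nuclei with empty and with g4, respectively. Astrocyte genes summed to 760.4 to 1563 CPM in empty HA-positive, 1040 to 2883 in g4 HA-positive and 1321 to 1908 in HA-negative libraries, and striatal projection neuron genes to 199.8 to 663.6 and 304.9 to 2432. Oligodendrocyte precursor genes summed to 2.02 to 117 CPM in HA-positive and 92.43 to 281.3 in HA-negative libraries. Endothelial and mural genes stayed at or below 44.09 CPM everywhere, and of the endocrine and chromaffin markers Dbh, Pnmt and Slc18a1 were at 0 in every group.

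The g4 HA-positive library of animal 19 stood apart. Its oligodendrocyte genes summed to 1568 CPM and its microglia genes to 371.7, while the medians of its group were 172 and 34.3. It also held both Xist (646 CPM) and Y-linked transcripts (48.1 CPM), whereas the other 15 libraries of animals 17 to 20 had Xist at 0 with 107 to 198 CPM of Y-linked genes. The 12 libraries of animals 21 to 23 had 476 to 1370 CPM of Xist and at most 3.83 of Y-linked genes. Without it, the highest sums in its group were 232.8 CPM for oligodendrocyte, 48.9 for microglia, 29.99 for precursor and 264 for striatal genes. Calls of members and list genes that change without that library are given with and without it. Since the libraries are bulk samples, fewer cells of a type and less RNA per cell cannot be told apart.

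Levels between genes were compared per kilobase (kb) of annotated exon. Per kb, Scg2 stood first in empty HA-positive nuclei at 88.9 ± 26.4 CPM (SD, n = 7), followed by Chgb (69.6 ± 22.4), Vgf (59.2 ± 10.3), Scg3 (43.6 ± 12.8), Scg5 (40.5 ± 15.5) and Chga (17.2 ± 7.28). In g4 HA-negative nuclei Scg2 had 34.0 CPM per kb, behind Scg3 (56.8), Chgb (54.4) and Scg5 (51.6). Chga was last in each group, between 14.6 and 18.4 CPM per kb. Most neighbours in the order did not differ beyond the larger of their SDs. The steps that did were Vgf above Scg3 and Scg5 above Chga in empty HA-positive nuclei, and Vgf above Chga in the other groups. Scg3 over Vgf in empty HA-negative and Scg5 over Scg2 in g4 HA-negative nuclei also exceeded it. With the longest transcript as the length, Scg5 moved up, to first place in both HA-negative groups. The deposited counts come from nuclear RNA and whether introns were counted is not given in the sources used here, so the exon length may not be the length that was counted.

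**Figure D1:**
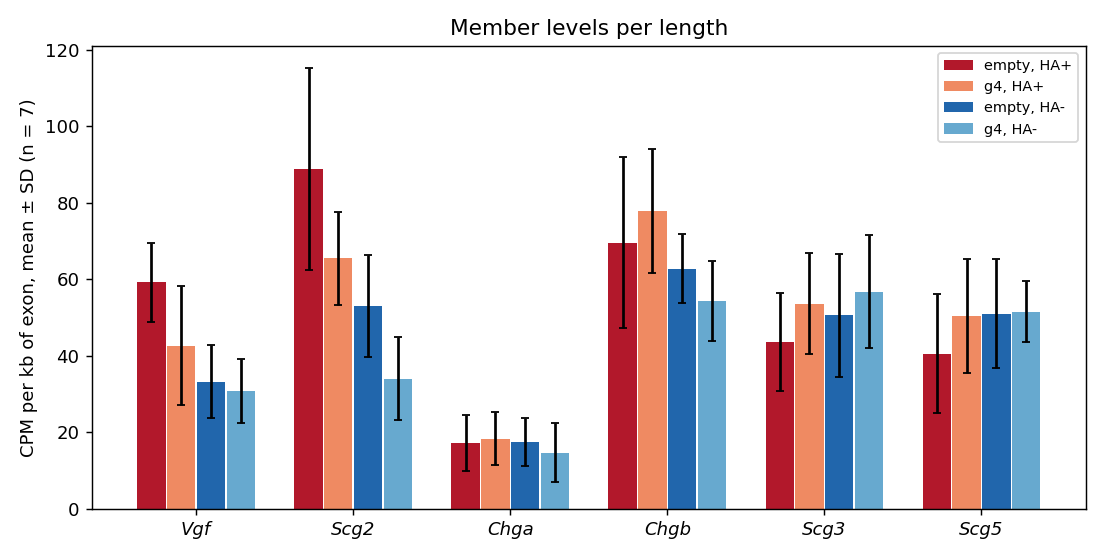
Mean level of each member in CPM per kb of exon (vertical axis) in the 4 groups, with the SD over 7 libraries as error bars. Scg2 goes from 88.9 in empty HA-positive to 34.0 in g4 HA-negative nuclei, and Chga stays between 14.6 and 18.4.

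The members are built differently. Vgf (chromosome 5, 137026392 to 137033351, plus strand, GRCm38) and Scg2 (chromosome 1, 79434669 to 79440120, minus strand) carry their whole coding sequence, 1851 bases in each, in 1 exon. Chgb (chromosome 2, 132781278 to 132795079, plus strand) has 5 coding exons, the largest of which holds 87.0% of its coding bases. Chga (chromosome 12, 102554969 to 102565028, plus strand) has 8. Scg3 (chromosome 9, 75643189 to 75684056, minus strand) spreads 12 coding exons over 40.9 kb, and Scg5 (chromosome 2, 113776362 to 113829121, minus strand) 5 over 52.8 kb. Exons make up 42.7% of the span of Vgf and 46.1% of Scg2, against 6.70% for Scg3 and 2.97% for Scg5. Another gene overlaps Scg3 only, on the opposite strand and within its introns.

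Comparing HA-positive with HA-negative nuclei describes the cells that carried Cas9. With the empty vector, Vgf and Scg2 stood higher in HA-positive nuclei while the other 4 members were not called. Vgf encodes a secreted neurotrophin-induced protein that is cut into several neuropeptides. Its lowest, median and highest levels were 141, 161 and 227 CPM in empty HA-positive and 71.8, 95.8 and 153 CPM in empty HA-negative libraries. The level was higher in 7 of 7 animals, and 6 of the 7 HA-positive libraries lay above the highest HA-negative one, that of animal 18. Mean levels were 176 ± 30.6 and 98.9 ± 28.4 CPM (SD, n = 7), with a log2 fold change of 0.85 ± 0.19 (standard error, SE) in the fit of edgeR's quasi-likelihood model for counts over all genes.

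Scg2 encodes secretogranin II, the precursor of secretoneurin. It ran through 149, 236 and 315 CPM (lowest, median, highest) in empty HA-positive libraries and through 98.3, 116 and 185 in empty HA-negative ones. It was higher in 6 of 7 animals, the exception being animal 21 (149 against 167 CPM), and the groups overlapped. The difference was 0.74 ± 0.20 on the log2 scale. A gene was called at an adjusted p under 0.05, with the Benjamini-Hochberg adjustment over all genes tested. Vgf and Scg2 were called, 2 of the 6 members, in a comparison where 7.01% of 5538 genes were called, and since the rule read these levels nothing is read from that count. The groups were free of overlap for 0 members and for 3.09% of genes. Vgf kept its call in 11 of 11 alternative fits, and Scg2 in 8 of 11, losing it without animal 17, 18 or 23.

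The other 4 members were not called in this comparison, and their log2 fold changes stood between the percentiles 27 and 62.3 of all genes tested. Chgb, which encodes secretogranin I or chromogranin B, had a log2 difference of 0.15 ± 0.18. Chga, the gene of chromogranin A, had -0.01 ± 0.33. Scg3 encodes a granin that binds membrane cholesterol and chromogranin A, and it had -0.18 ± 0.22. Scg5 encodes 7B2, the chaperone of prohormone convertase PC2, and at -0.28 ± 0.27 it was lower in 6 of 7 animals. The median over the 6 members was 0.07, against 0.01 over all genes tested.

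**Figure D2:**
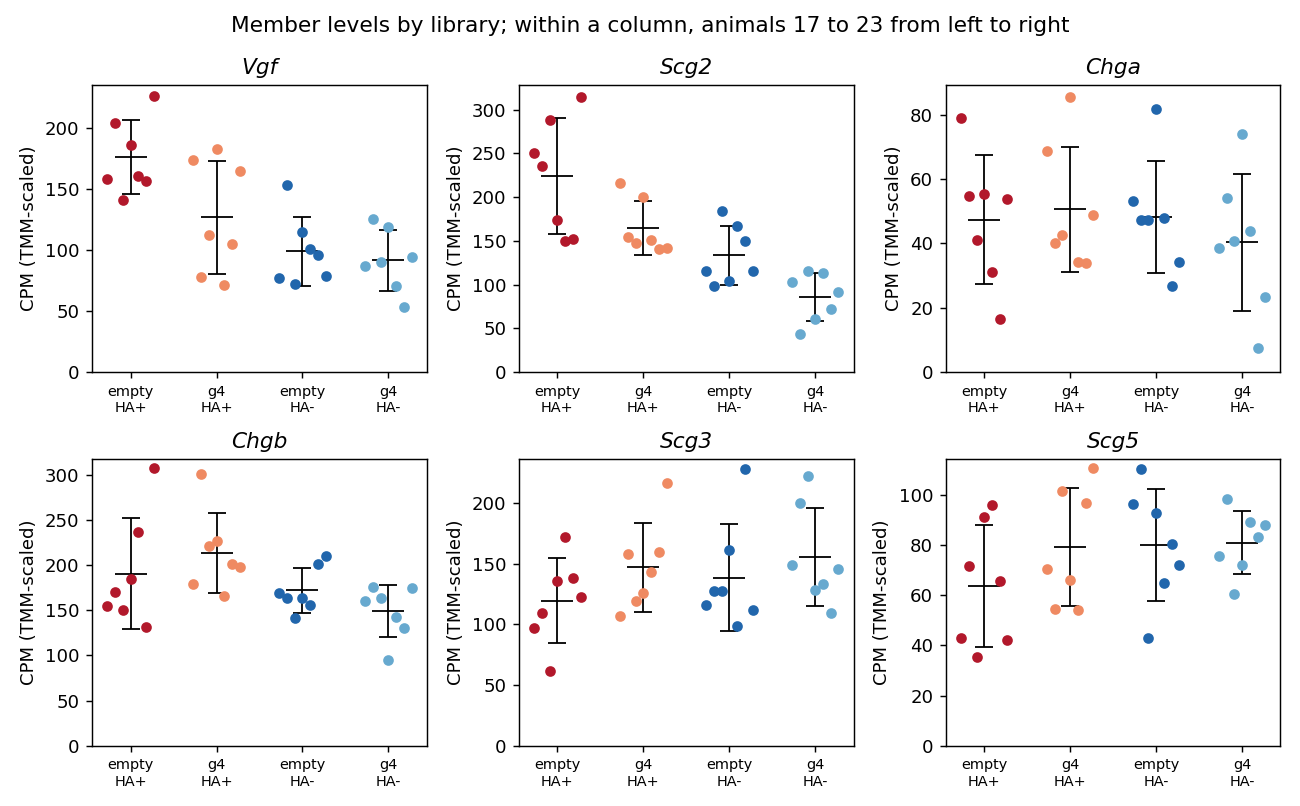
Level of each member in CPM (vertical axes) in the 28 libraries, by group, with animals 17 to 23 from left to right within a column and the mean ± SD in black. For Scg2 all 7 g4 HA-positive points lie above the highest g4 HA-negative point of 115 CPM, while the columns of Scg3 and Scg5 overlap throughout.

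With the g4 vector, Scg2 and Chgb were the members called higher in HA-positive nuclei. Scg2 had 141, 151 and 216 CPM (lowest, median, highest) in HA-positive and 44.0, 91.2 and 115 CPM in HA-negative libraries. The groups did not overlap, which held for 1.8% of 6264 genes. The means were 165 ± 30.4 and 85.6 ± 27.4 CPM (SD, n = 7), and the log2 fold change was 0.92 ± 0.19, with the call kept in 12 of 12 alternatives.

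Chgb ran through 166, 201 and 301 CPM in g4 HA-positive and through 95.4, 161 and 176 in g4 HA-negative libraries (lowest, median, highest). It was higher in 7 of 7 animals, and 6 HA-positive libraries exceeded the highest HA-negative one. Its log2 difference was 0.52 ± 0.16 (SE). The call was kept in 2 of 12 alternatives, DESeq2, another count model, and the fit with the animal as a block, and was lost when any animal was left out. It was also lost without the animal 19 library that stood apart, with a range of 0.42 to 0.57 in the log2 fold change over the 12. The members called with g4 were 2 of 6, where 6.4% of all genes were called, and without that library 1 was. Since the rule read these levels, nothing is read from that count.

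Vgf was not called with the g4 vector. Its levels were 71.4, 113 and 183 CPM in HA-positive and 53.4, 90.5 and 125 in HA-negative libraries (lowest, median, highest). The g4 HA-positive libraries were spread widely: animals 17, 20 and 23 had 173, 183 and 165 CPM, above every HA-negative library, and animals 18 and 21 had 77.5 and 71.4. The log2 difference was 0.49 ± 0.22, higher in 6 of 7 animals. Chga had 0.36 ± 0.34, Scg3 -0.08 ± 0.17 and Scg5 -0.03 ± 0.21. The median over members was 0.42 against 0.01 over all genes, and nothing is read from it, as the rule read these levels.

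The 2 fractions also differed in their cell type markers. Of all genes tested, 7.01% were called with empty and 6.4% with g4, in either direction. Of the inhibitory neuron markers, 9 of 11 tested rose in empty HA-positive and 10 of 13 in g4 HA-positive nuclei, and 0 fell. The 10 include Cort, which had enough counts to be tested only through the group where it was high, so nothing is read from its call. Of the oligodendrocyte markers, 7 of 7 and 6 of 8 fell, and of the microglia markers 5 of 5 and 4 of 6. Without the animal 19 library that stood apart, 9 of 9 and 6 of 6 of those tested fell with g4. Within HA-positive nuclei, g4 against empty, 2 of 10 oligodendrocyte and 0 of 10 microglia markers had enough counts to be tested. Most of these markers were thus tested through the HA-negative group, where they were high, and nothing is read from the counts of those that fell. Microglia genes summed to 7.17 to 46.1 CPM in empty HA-positive libraries, with Cx3cr1, P2ry12, C1qa, C1qc and Gpr34 at 0, and to 282 to 649.8 in empty HA-negative ones. Oligodendrocyte genes summed to 53.8 to 130.5 and 1280 to 2189 CPM. With g4 the sums were 2.87 to 371.7 and 437.4 to 682.7 CPM for microglia, and 109.8 to 1568 and 1552 to 2790 for oligodendrocytes. The part of these markers in the differences of Vgf, Scg2 and Chgb was not tested.

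**Figure D3:**
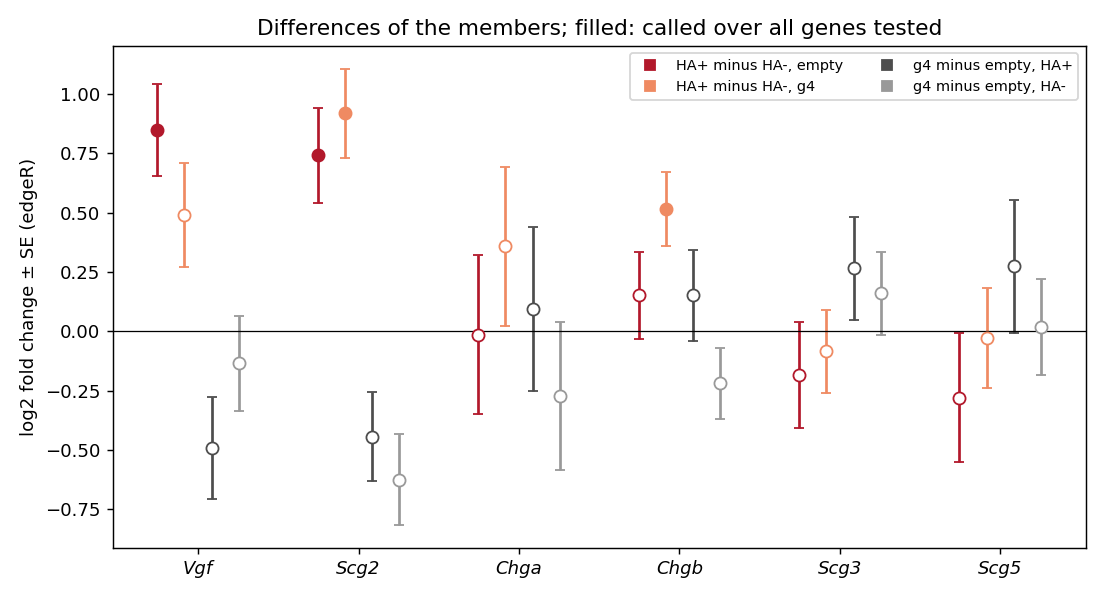
Log2 fold change of each member (vertical axis, with SE as error bars) in 4 comparisons, HA-positive minus HA-negative nuclei with each vector and g4 minus empty in each fraction. Filled points were called over all genes tested: Vgf and Scg2 with the empty vector, Scg2 and Chgb with g4.

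The comparison of g4 with empty is also one of the right with the left hemisphere, so a difference cannot be assigned to the vector. What is called the g4 effect is this difference. Vgf and Scg2 stood lower on the g4 side of HA-positive nuclei, and neither was called. Vgf was lower in 6 of 7 animals, all but animal 17, and 4 g4 libraries lay below the lowest empty one. The means were 127 ± 46.5 with g4 and 176 ± 30.6 CPM with empty (SD, n = 7), a log2 fold change of -0.49 ± 0.21. Scg2 was lower in 5 of 7 animals, with animals 20 and 21 the exceptions, at 165 ± 30.4 and 224 ± 66.3 CPM (-0.44 ± 0.19).

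In the same nuclei Scg3 had a log2 fold change of 0.26 ± 0.22, Scg5 0.27 ± 0.28, Chgb 0.15 ± 0.19 and Chga 0.09 ± 0.35. The edgeR fit called 0 of 6 members and 3 of 5011 genes (0.0599%), and with the animal as a block 1 gene. At an unadjusted p under 0.05 there were 335 genes. Groups without overlap were found for 0 members and for 0.239% of genes. Markers of several cell types differed alongside Vgf and Scg2 here, with 0 called. Of the inhibitory neuron markers 10 of 12 were lower with g4 (median log2 fold change -0.29), of the astrocyte markers 6 of 7 were higher (0.61), of the excitatory neuron markers 8 of 10 (0.33) and of the oligodendrocyte markers 2 of 2 (1.84). Without the animal 19 library that stood apart, these medians were -0.22, 0.64, 0.29 and 0.76. Of the striatal projection neuron markers 2 of 3 were lower (-0.21). Their part in the result was not tested.

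In HA-negative nuclei Scg2 was lower with g4 in 7 of 7 animals. Its lowest, median and highest levels were 44.0, 91.2 and 115 CPM with g4 and 98.3, 116 and 185 with empty, and 4 g4 libraries lay below the lowest empty one. The log2 fold change was -0.63 ± 0.19, at the percentile 1.84 of all 6262 genes tested, and it stayed between -0.69 and -0.55 in 10 alternatives. It was not called in any of them. Chga was lower in 6 of 7 animals (-0.27 ± 0.31), Chgb in 5 of 7 (-0.22 ± 0.15), and Vgf was at -0.14 ± 0.20. Scg3 (0.16 ± 0.17) and Scg5 (0.02 ± 0.20) were near level.

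The test called 0 members and 0% of genes in HA-negative nuclei, with 236 genes at an unadjusted p under 0.05 and 1 called by DESeq2. Groups free of overlap made up 0.0958% of genes and 0 members. Of the markers, 9 of 10 for striatal projection neurons (median -0.24) and 9 of 10 for inhibitory neurons (-0.17) were lower with g4. Higher were 4 of 4 for oligodendrocyte precursors (0.65), 6 of 8 for microglia (0.30) and 7 of 9 for oligodendrocytes (0.09), and 6 of 13 for excitatory neurons (-0.05) and 4 of 7 for astrocytes (0.02). Of all these 0 were called, and their part in the level of Scg2 was not tested. The difference of the g4 effect between HA-positive and HA-negative nuclei was fitted in 1 model over all 28 libraries. It was -0.34 ± 0.30 for Vgf, 0.20 ± 0.27 for Scg2, 0.11 ± 0.28 for Scg3, 0.27 ± 0.34 for Scg5, 0.38 ± 0.48 for Chga and 0.38 ± 0.24 for Chgb. Of the 6 members 0 were called, and 0% of 7197 genes, with 359 at an unadjusted p under 0.05 and 0 called by DESeq2. The call of Vgf with one vector only and of Chgb with the other is thus no tested difference between the vectors.

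Chga varied by animal. Of its variation within groups on the log2 scale, 72.1% went with the animal, against a median of 24.9% over 7197 genes and the 25% that no animal effect would give, and this stood at the percentile 99.8 of all genes. The SEs given for Chga come from fits without the animal and so include this variation. Animal 22 had the lowest level in all 4 groups, at 16.4 CPM in empty HA-positive, 34.0 in g4 HA-positive, 26.8 in empty HA-negative and 7.41 in g4 HA-negative nuclei, the last from 5 counts. Animal 20 had the highest level in 3 of the 4 groups (85.4, 81.9 and 74.0 CPM), and animal 17 in the fourth with 78.9. Averaged over its 4 libraries, Chga ran from 21.2 ± 11.7 CPM in animal 22 to 74.2 ± 13.4 in animal 20 (SD, n = 4). The animals that held Y-linked transcripts, 17 to 20, averaged 43.0 to 74.2 CPM, and those with Xist, 21 to 23, averaged 21.2 to 40.0. These are also the 3 animals whose number in the sample title is 1 below that in the column name. The part of either in the level was not tested.

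The share for Chga was 58.6% without the 4 libraries of animal 22 and 66.4% with levels from unscaled library sizes. The other members had 35.8% (Vgf), 31.7% (Scg2), 27.8% (Chgb), 19.3% (Scg5) and 13.9% (Scg3). The genes whose pattern was most like that of Chga were all ribosomal RNA: CT010467.1 (Pearson r 0.754), mt-Rnr2 (0.738) and mt-Rnr1 (0.719), over 28 libraries. With the group means taken out, r was 0.772, 0.775 and 0.774. These genes also went with the animal, with shares of 73.7, 72.9 and 67.3%, and each was highest on average in animal 20. CT010467.1 alone took 282100 to 308300 CPM of the group means. The points share libraries and animals, and the part of the ribosomal RNA content in the level of Chga was not tested.

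**Figure D4:**
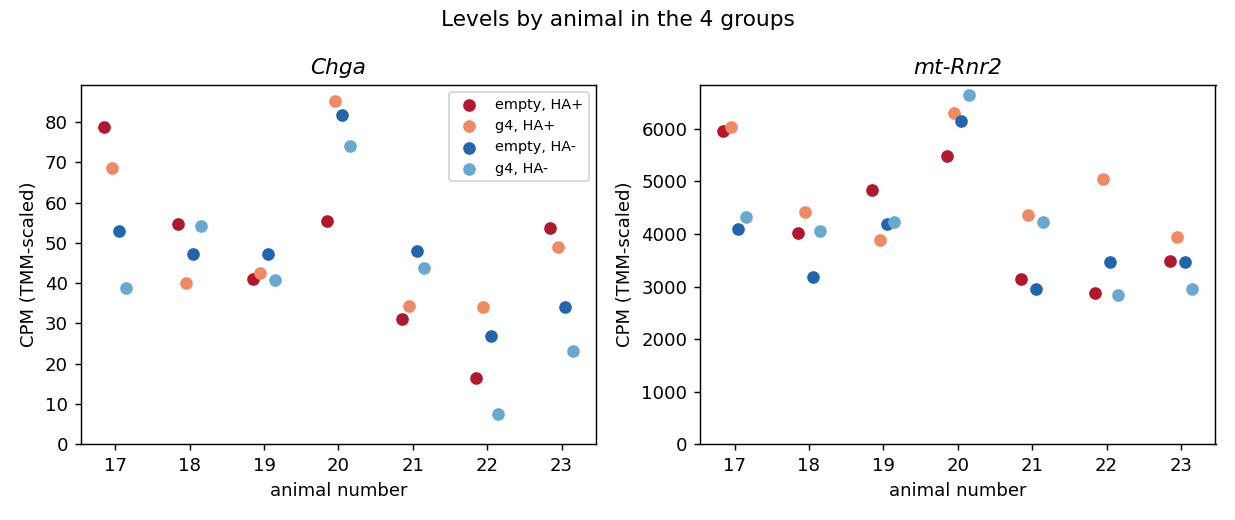
Level of Chga (left) and of the mitochondrial ribosomal RNA mt-Rnr2 (right) in CPM for each animal, 1 point per group. Animal 22 has the lowest Chga level in all 4 groups, and animal 20 has the highest average of both genes.

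Likeness was measured for every member against 7196 genes as Pearson's r of log2 CPM over the 28 libraries, which share group differences and depth. Nearest to Scg2 were Gad2, which makes the transmitter GABA (r 0.818), Cend1 (0.801) and Man1c1 (0.792). With the group means removed these were 0.531, 0.501 and 0.408. Among the nearest to Vgf were Atp1b1, which encodes a subunit of the sodium pump (0.73), and the synaptic vesicle calcium sensor gene Syt1 (0.726), with 0.397 and 0.566 within groups. Scg3 was nearest to Cntn1 (0.769, and 0.731 within groups), Scg5 to Pja1 (0.693 and 0.676) and Chgb to Mroh1 (0.667 and 0.489). Among the 15 pairs of members r ran from -0.6 to 0.478 with a median of 0.0983. Vgf and Scg2 had 0.478, and -0.0932 within groups. Vgf and Chga had 0.476, and 0.585 within groups, and Scg2 and Scg5 -0.6 and -0.644.

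Granin peptides and neuropeptides are made by a shared set of enzymes. In this list of 16 genes, 9 were tested with the empty vector, 1 rose in HA-positive nuclei and 0 fell. With g4 2 of 10 rose and 1 fell. Of all genes tested, 7.01% were called with empty and 6.4% with g4, and nothing is read from the counts of this list. Pam, which amidates the ends of peptides, was the gene that rose with both vectors, from 155 ± 28.6 to 265 ± 49.5 CPM with empty (SD, n = 7; log2 fold change 0.79 ± 0.16, adjusted p 0.00173 by edgeR) and from 157 ± 27.3 to 294 ± 66.8 with g4 (0.90 ± 0.15, adjusted p 0.000153). It was higher in 7 of 7 and in 6 of 7 animals.

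Pcsk2, the convertase PC2 that Scg5 serves, fell in g4 HA-positive nuclei, from 292 ± 22.1 to 184 ± 35.2 CPM (SD, n = 7; -0.67 ± 0.13, lower in 7 of 7 animals, adjusted p 0.00119 by edgeR). With the empty vector it had -0.43 ± 0.18, lower in 7 of 7, and was not called (adjusted p 0.155). Resp18, a vesicle protein, rose with g4 at 39.1 ± 13.5 against 16.3 ± 6.54 CPM (adjusted p 0.036), and lost the call with the animal as a block (adjusted p 0.0741) and in 8 of 12 alternatives, which gave adjusted p from 0.0124 to 0.184. The convertase gene Pcsk1 (-0.20 ± 0.33 with empty, -0.01 ± 0.25 with g4), the carboxypeptidase gene Cpe (-0.20 ± 0.15 and 0.10 ± 0.12) and Pcsk1n, the granin-like inhibitor of PC1 (0.20 ± 0.23 and 0.39 ± 0.20), were not called. Median log2 fold changes of the list were -0.16 with empty and 0.11 with g4.

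Of 39 genes for the biogenesis, transport and release of the vesicles, 28 were tested in each comparison of fractions. With the empty vector 5 rose and 0 fell in HA-positive nuclei, and with g4 4 rose, Vat1 among them, and 0 fell. Of all genes tested, 7.01% were called with empty and 6.4% with g4. Cadps, the CAPS1 protein that primes dense-core vesicles for release, rose from 265 ± 35.3 to 451 ± 87.6 CPM with empty (SD, n = 7; 0.78 ± 0.14, adjusted p 0.000261 by edgeR) and from 242 ± 45.7 to 420 ± 72.7 with g4 (0.79 ± 0.14, adjusted p 0.000222). Rab3b, a small GTPase of secretory vesicles, rose by 2.21 ± 0.26 (adjusted p 6.25e-07) and 1.63 ± 0.25 (4.6e-05). Rab3c rose with both vectors (0.64 ± 0.16 and 0.46 ± 0.13).

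Kif1a, the motor that carries these vesicles along axons (0.50 ± 0.14, adjusted p 0.0202 by edgeR), and Rab27b (1.03 ± 0.30, 0.0296) rose with the empty vector. With g4 they had 0.19 ± 0.11 and 0.64 ± 0.26 and were not called, and the differences between the vectors were not called either. Kif1a missed the threshold with the animal as a block (adjusted p 0.052). Rab3c, Rab27b and Kif1a lost their calls when single animals were left out. Vat1 was put on this list with earlier results of these data known. With g4 it stood at 88.4 ± 44.8 CPM in HA-positive and 12.4 ± 5.44 in HA-negative nuclei (2.81 ± 0.36). With empty it was below the count filter (27.2 ± 14.0 and 13.5 ± 7.24 CPM). It passed the filter with g4 through the group where it was high, so nothing about the vesicle genes is read from its call. The difference of its g4 effect between fractions was 1.82 ± 0.58 (adjusted p 0.797). Cadps2 (0.08 ± 0.26 and 0.12 ± 0.24) and the vesicle membrane phosphatase relatives Ptprn (-0.23 ± 0.17 and -0.03 ± 0.16) and Ptprn2 (0.09 ± 0.19 and 0.26 ± 0.15) were not called. Without the animal 19 library that stood apart 5 vesicle genes were called with g4, the added one being Rab3a (0.44, adjusted p 0.0367 by edgeR, against 0.075 with it). The list had a median of 0.13 with empty and 0.15 with g4.

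**Figure D5:**
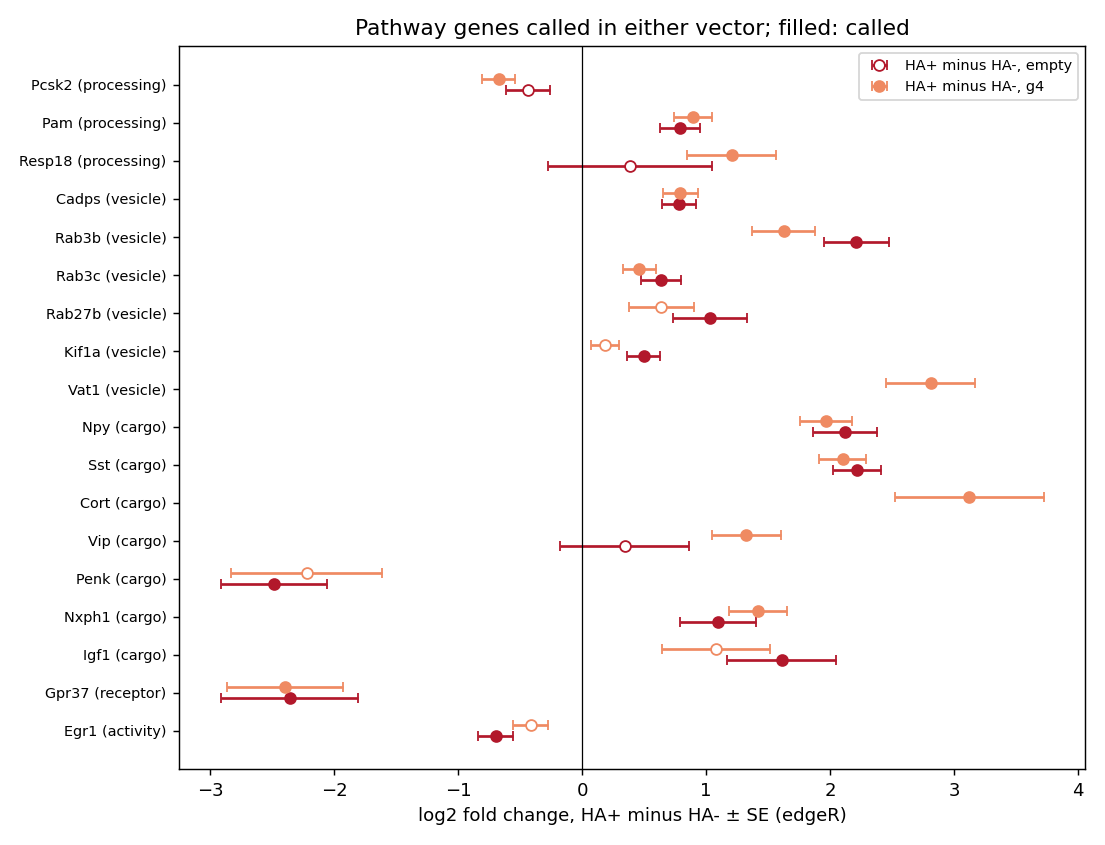
Log2 fold change of HA-positive over HA-negative nuclei (horizontal axis, with SE as error bars) for the pathway genes called with either vector, filled where called. Pam, Cadps and Rab3b lie right of 0 with both vectors, and Pcsk2 lies left of 0.

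Peptides and trophic factors are the cargo that granins accompany. Of 30 such genes, 9 were tested with empty, of which 4 rose and 1 fell. With g4 11 were tested, of which 5 rose, Cort among them, and 0 fell. Of all genes tested, 7.01% were called with empty and 6.4% with g4. Sst rose from 91.6 ± 20.8 to 421 ± 126 CPM with empty (SD, n = 7; 2.22 ± 0.19, adjusted p 2.55e-09 by edgeR) and from 84.7 ± 30.4 to 370.4 ± 79.3 with g4 (2.10 ± 0.19). Npy rose by 2.12 ± 0.26 and 1.97 ± 0.21. Both are also on the inhibitory neuron list given above. Nxph1 rose with both vectors (1.10 ± 0.30 and 1.42 ± 0.23), and its call with empty was lost with the animal as a block (adjusted p 0.0533).

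Penk, the enkephalin precursor gene, fell with empty from 189 ± 109 to 31.5 ± 22.7 CPM (SD, n = 7; -2.48 ± 0.43, adjusted p 0.00097 by edgeR). With g4 it had -2.22 ± 0.61 (adjusted p 0.0501), and it was called with the animal as a block (adjusted p 0.00712), which made 6 cargo genes called in place of 5, and without the animal 19 library that stood apart (adjusted p 0.0422). Penk is also on the striatal projection neuron list, of which 6 of 7 tested genes fell with empty and 6 of 8 with g4. The shares of all genes called were 7.01% and 6.4%. Of the 10 striatal genes, 3 had enough counts to be tested within HA-positive nuclei, so nothing is read from these counts. The growth factor gene Igf1 rose with empty (1.61 ± 0.44) and lost the call without animal 19, 22 or 23. With g4 it had 1.08 ± 0.44 (adjusted p 0.165 by edgeR), higher in 7 of 7 animals. Vip (1.33 ± 0.28) and Cort (3.13 ± 0.60) rose with g4. Cort was below the count filter with empty, and also with g4 when the animal 19 library was left out. It passed the filter with g4 through the group where it was high, so nothing is read from its call. Medians of the list were 0.77 with empty and 1.08 with g4, against 0.01 over all genes in each. The g4 median includes Cort, and the list was chosen with earlier results of these data known. Nothing is read from its counts or medians.

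Of 3 tested genes on a list of receptors, Gpr37 fell with both vectors. Its binding of granin peptides was not tested. With empty it stood at 11.3 ± 11.9 against 52.6 ± 16.3 CPM (SD, n = 7), a log2 fold change of -2.36 ± 0.55 (adjusted p 0.00614 by edgeR). With g4 it stood at 12.2 ± 16.2 against 73.6 ± 9.38 (-2.40 ± 0.46, adjusted p 0.00211 by edgeR). Of all genes tested, 7.01% were called with empty and 6.4% with g4. Gpr37 passed the count filter through the HA-negative group, where it was high, so nothing is read from its calls. Gpr37 is abundant in oligodendrocytes, whose markers also fell, and their part in its level was not tested. Of 21 activity-induced regulators, 9 were tested with empty and 10 with g4. Egr1 was the 1 of 9 called with empty, and it fell from 395 ± 61.9 to 241 ± 41.0 CPM in HA-positive nuclei (-0.70 ± 0.14, lower in 7 of 7 animals, adjusted p 0.00137 by edgeR). With g4 it had -0.42 ± 0.14 and was not called. In all 8 of 9 were lower with empty, with a median of -0.55. With g4 0 of 10 were called, with 9 of 10 lower and a median of -0.18. The part of activity or of cell types in these levels, and in those of Vgf and Scg2, was not tested.

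Between g4 and empty, 0 genes of these lists were called in either fraction, nor was the difference of the effects called for any of them. Of all genes tested, 0.0599% were called in HA-positive and 0% in HA-negative nuclei. In HA-positive nuclei Cpe was higher with g4 in 7 of 7 animals, at 387 ± 58.4 against 288 ± 75.8 CPM (SD, n = 7; 0.42 ± 0.16), and was not called (adjusted p 0.703 by edgeR). Vat1 had 1.67 ± 0.38 (adjusted p 0.137 by edgeR), and it was called without the animal 19 library that stood apart (1.82, adjusted p 0.0296 by edgeR). It was put on the vesicle list with earlier results of these data known, and nothing about the vesicle genes is read from this call. A gene of the vesicle list was also called by DESeq2 and without the filter on low counts. The list medians in HA-positive nuclei were 0.17 for processing, -0.02 for vesicle machinery, -0.18 for cargo, 0.14 for the 1 tested receptor gene and 0.18 for the activity list.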

How the data were processed

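RNA of sorted nuclei was measured in 28 libraries of 7 mice. The authors deposited whole-number counts per gene, named raw counts per the labels, in a table for each sorted fraction. Libraries were made from 40 to 2000 pg of RNA per the labels' protocols, and the build GRCm38 comes from the submitters' processing notes. Not given in the sources used here are the aligner, the counter, strandedness and molecular identifiers. The tables hold 0 cells with the value 0, and empty cells were taken as 0. Of 41550 entries, 1 named no gene (0% of counts) and was left out.

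Groups and animals came from the sample titles. For animals 21 to 23 the title number is 1 below that in the column name, and the descriptions tied samples to columns. Genes were fitted with edgeR 4.0.16 (R 4.3.3) after filterByExpr by group (TMM, robust quasi-likelihood, two-sided, Benjamini-Hochberg over all genes tested, called under 0.05), for 5 comparisons, each on its own groups (the difference of effects on all 4). The script was tested on simulated data, where a log2 change of 2 was recovered for 62 to 83.5% of the changed genes, depending on the comparison. The member differences were at most 0.92 on this scale, and recovery at such sizes was not simulated. A gene that was not called may therefore still differ. Log2 CPM for likeness and animal shares used a prior count of 2. The animal share is the part of the summed squares within groups that lies between animals. Alternatives were DESeq2 1.42.0, no filter, the animal as a block, leaving out libraries or animals, raw library sizes and transcript length. Libraries of the same animal share its number by design. The median correlation across genes of their deviations from group means was 0.0111 to 0.0611 per comparison. The blocked value stands beside a member or list gene where it changes its call.

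Gene positions and lengths are from GENCODE vM21 (GRCm38), and promoters from RefSeq. Members and lists were chosen with earlier results of these data known. Named genes are all members, 9 processing and vesicle genes always, in each comparison up to 4 called list genes with the smallest p, and up to 3 of the most similar genes per member, some of which are not reported here. Other called list genes were named after their values were seen. The animal share and its alternatives were added after the data were seen.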

Additional observations from a re-analysis of the deposited data

How the results depend on the processing

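Of 342 member log2 fold changes recomputed under alternatives, 341 stayed within 1 SE of the value given. The exception was Scg3, g4 against empty in HA-negative nuclei, at 0.40 without animal 22, and 0 called members changed sign. Members called in HA-positive against HA-negative nuclei were 1 to 2 with the empty vector and 1 with g4 when an animal was left out. With g4 the count was also 1 without the filter, without the animal 19 library of that group, and without the libraries under 10000 genes.

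Genes called for g4 against empty in HA-positive nuclei went from 3 to 11 with DESeq2, 28 without the filter, 5 without the library of animal 19, 0 without the libraries under 10000 genes and 1 to 4 without an animal. With the animal as a replicate block the count was 1. In HA-negative nuclei DESeq2 called 1, and the difference of effects gave 3 without the filter. For HA-positive against HA-negative nuclei with empty, 388 became 661 without the filter and 251 to 371 without an animal (251 without animal 19), and with g4 401 became 507 without the library of animal 19 and 218 to 422 without an animal (218 without animal 20).

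In the lists, the vesicle genes called for g4 against empty in HA-positive nuclei were 1 with DESeq2, without the filter or without the library of animal 19, and 0 to 1 without an animal. With the empty vector they were 2 to 5 between fractions without an animal, and the cargo genes 3 to 5. Receptor and activity genes were 2 each without the filter, processing genes 2 without the libraries under 10000 genes, and activity genes with g4 0 to 1 without an animal. The cause of these changes was not tested. Among members and list genes, the block lost the calls of Kif1a and Nxph1 (empty) and Resp18 (g4) and added Penk (g4). Depth limits the members: the lowest count of Chga was 5, and the counting error given covers the sampling of reads only.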

Other observations

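The 6 members together held 821 ± 129 CPM in empty HA-positive, 781 ± 92.6 in g4 HA-positive, 671 ± 63.4 in empty HA-negative and 603 ± 83.4 in g4 HA-negative libraries (SD, n = 7). The sum was higher in HA-positive than in HA-negative nuclei in 6 of 7 animals with empty and in 7 of 7 with g4, and the ranges of the groups overlapped in both.

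The spread of the members over the 7 libraries of a group stood above counting error to different degrees. It does not separate animals from library preparation. Scg5 in g4 HA-negative libraries had a coefficient of variation of 15.6%, against 15.4% from counting alone, and Chga in the same libraries had 52.8% against 24.8%. Vgf had 17.4% against 12.4% in empty HA-positive and 36.7% against 13.2% in g4 HA-positive libraries. Of the 24 sets of 7 values (6 members in 4 groups), 0 held a value far enough from the rest to pass Dixon's test.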
